A study of Arabidopsis thaliana with 12 samples.

Results

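The chloroplast lipocalin gene CHL and the fibrillin family genes AT1G51110 and AT5G19940 were examined in dark-adapted Arabidopsis thaliana. They are 3 of 692 array features annotated with exactly 1 gene, out of 3439 features in all. The genes were picked by name, with their laf6 and WT values already known, so their differences between the groups are given as a description, with no test. The 12 arrays hold total RNA of the Landsberg ecotype, 6 from WT and 6 from laf6, both dark adapted. The labels describe laf6 as a mutant that lacks atABC1, whose gene is now called SUFB and encodes part of the plastid machinery for iron-sulfur clusters. Tissue, age, growth light and the length of darkness are not stated in the labels, nor whether the arrays came from separate plants. The p-values thus rest on array-to-array spread alone, part or all of which may be technical.

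Lipocalins are small barrel-shaped proteins that carry lipid-like molecules. CHL lies in the thylakoid lumen of Arabidopsis, where it limits lipid peroxidation under drought and strong light and is required for a sustained form of photoprotective heat dissipation in the antenna known as qH. Fibrillins are plastid proteins found in plastoglobules, the lipid droplets attached to thylakoids, and in thylakoids and stroma, and are thought to bind lipids, carotenoids or quinones. They are known for their part in thylakoid lipid storage and in the protection of the photosystems against light stress.

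Intensities have no absolute unit and were compared after quantile normalization. Features listed at 0 numbered 447 to 540 per WT array and 491 to 674 per laf6 array, and the median deposited intensity was 0.218 to 0.289 in WT and 0.178 to 0.202 in laf6. Values at 0 were set to a floor of 0.00597 before log2. In total RNA, fewer cells of a type and less RNA per cell cannot be told apart. Of 16 marker genes of seed, pollen, root and leaf mesophyll, LHB1B2, a leaf mesophyll marker that encodes an antenna protein, alone had a feature with a single gene name, so the tissue could not be checked against its markers. LHB1B2 was higher on every laf6 array than on any WT array, with normalized intensities of 19.8 ± 4.66 for WT and 45.6 ± 4.51 for laf6 (SD, n = 6) and a log2 difference of 1.23 ± 0.15 (SE, limma adjusted p = 8.06e-05). Of all single-gene features, 7.08% separated the groups in this direction and 10.3% had an adjusted p under 0.05 as higher in laf6. The part of LHB1B2 in the differences below was not tested.

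Every laf6 array read lower for CHL than every WT array. Its normalized intensity in WT ran from 0.1485 on replicate 6 through a median of 0.196 to 0.222 on replicate 1, with a mean of 0.191 ± 0.0299 (SD, n = 6). In laf6 it was listed at 0 on replicates 2 and 3, and the other 4 arrays read 0.107, 0.0579, 0.0517 and 0.0738 for replicates 1, 4, 5 and 6. The WT values were tightly grouped and the laf6 values were spread between the floor and a level still below the lowest WT array, so the groups did not overlap. Non-overlap in this direction occurred in 9.25% of the single-gene features, and since CHL was chosen on this contrast nothing is read from that share.

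The CHL medians differed 3.57-fold, and this ratio does not depend on the floor because the middle laf6 arrays had a signal. The fitted log2 difference, laf6 minus WT, was -2.62 ± 0.74 (SE, limma). The size of that log2 difference depended on how low values were treated. It was -6.08 with the floor at the smallest positive value, which the arrays at 0 then take. With an offset of 0.1 in place of a floor it was -1.015, but that offset also shrinks differences between arrays with a signal. The ratio of medians was 3.55 with cyclic loess, its lowest, and 4.57 as deposited, its highest, and the groups did not overlap under any of the 5 scalings.

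AT1G51110, a fibrillin, was measured above 0 on all 12 arrays and did not separate the groups. In WT its normalized intensity ran from 0.0317 on replicate 2 through a median of 0.111 to 0.297 on replicate 5. In laf6 it ran from 0.1535 on replicate 2 through a median of 0.168 to 0.245 on replicate 5. WT replicate 5 alone lay above the laf6 arrays. The other WT arrays, at 0.133 or less, all lay below the lowest laf6 array, so the overlap rests on WT replicate 5. Replicate 5 was the highest array in each group. The fitted log2 difference was 0.78 ± 0.43 (SE), with a within-group SD of 1.06 in WT and 0.25 in laf6 on the log2 scale. It was 1.11 without WT replicate 5, 0.44 without WT replicate 2, 0.48 without replicates 1 and 2 of both groups, 0.37 with the offset and 0.32 with the values as deposited. As deposited, the median of all features was itself shifted by -0.45, and relative to that median the AT1G51110 difference was 0.77.

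AT5G19940, the other fibrillin, was close to the floor in both groups. In WT it had a signal on all 6 arrays, with normalized intensities of 0.0202, 0.0882, 0.00597, 0.01003, 0.0456 and 0.0454 for replicates 1 to 6, replicate 3 being a weak signal raised to the floor. In laf6 it was listed at 0 on replicates 1 to 4 and read 0.01003 on replicate 5 and 0.0639 on replicate 6. Signal in WT was thus weak and variable, while in laf6 most arrays had none listed and replicate 6 lay above 5 of the 6 WT arrays, so the groups overlapped.

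The fitted log2 difference of AT5G19940 was -1.35 ± 0.79 (SE), and no fold is given because most laf6 arrays were at 0. This number also moved with the treatment of low values. It was -8.23 with the floor at the smallest positive value, -0.30 with the 5th percentile and -0.27 with the offset. Without replicates 1 and 2 of both groups it was -0.74. It was negative under all 25 alternatives. The 2 laf6 arrays with a signal for AT5G19940 were the 2 with the fewest features at 0, 532 on replicate 5 and 491 on replicate 6, against 601 to 674 on the others. The part of this in the result was not tested.

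**Figure D1:**
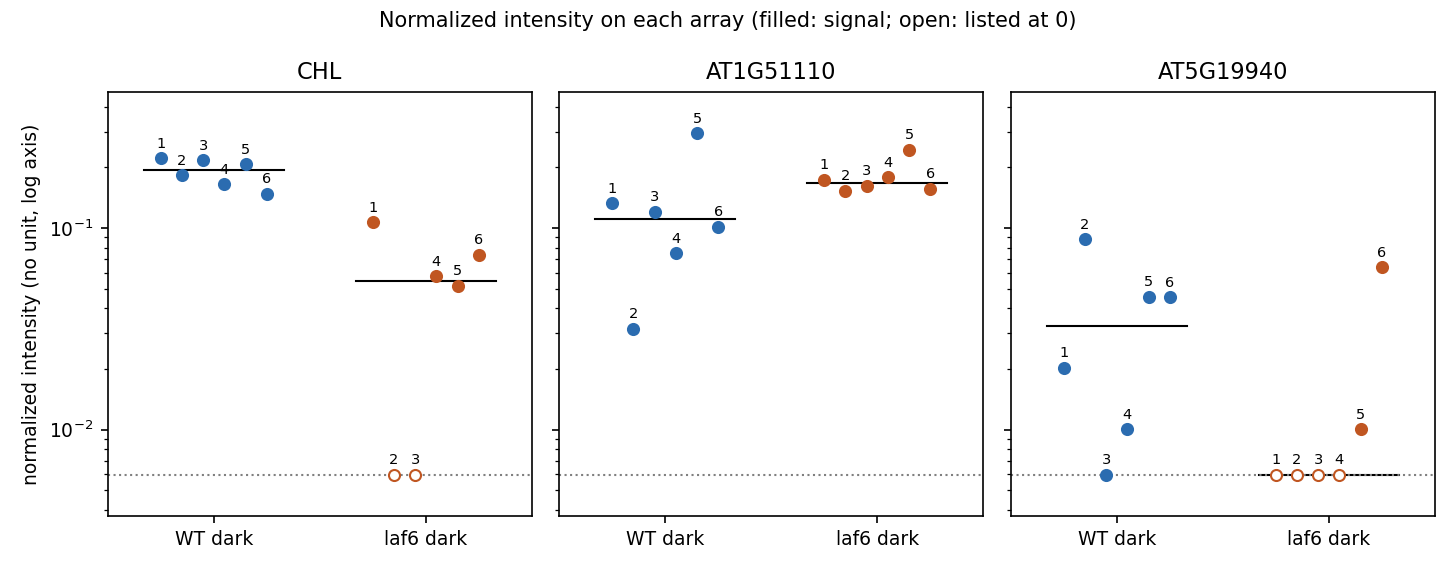
Normalized intensity (log axis) of CHL, AT1G51110 and AT5G19940 on each of 6 WT and 6 laf6 arrays, numbered by replicate. Open points are arrays listed at 0, placed at the floor of 0.00597 (dotted line), and black bars are group medians. CHL shows no overlap. AT1G51110 overlaps only through WT replicate 5, which lies above every laf6 array. AT5G19940 is at 0 on 4 laf6 arrays.

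Features listed at 0 in laf6 and not in WT were more frequent than the reverse. Of the 692 single-gene features, 31 (4.48%) were at 0 on at least 2 laf6 arrays and on no WT array, the pattern CHL and AT5G19940 showed, and 8 (1.16%) had the reverse pattern. At least 4 laf6 arrays at 0 with none in WT, as in AT5G19940, was found for 10 features (1.45%), and the reverse for 3 (0.434%). AT1G51110 belonged to the 448 features (64.7%) with a signal on every array. The pattern of arrays at 0 was part of the choice of members, so these shares are context only.

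**Figure D2:**
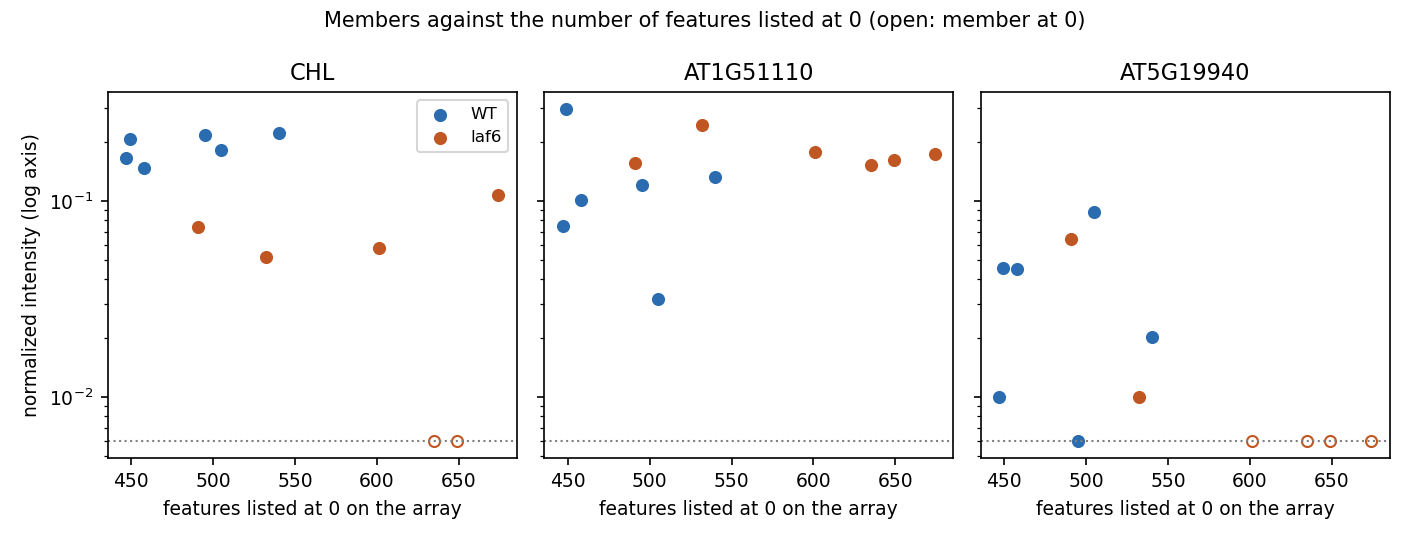
Normalized intensity (log axis) of each member against the number of features listed at 0 on the same array, for 6 WT and 6 laf6 arrays. Open points mark arrays on which the member itself is at 0. For AT5G19940 the 4 open points are the laf6 arrays with 601 to 674 features at 0. For CHL the open points are the laf6 arrays with 635 and 649 features at 0. The laf6 array with 674 features at 0 has the highest laf6 value of CHL, 0.107. The part of the features at 0 in either gene was not tested.

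Array-to-array variation was compared between the 3 genes. With each group's mean removed, the Pearson correlation over the 12 arrays was 0.14 between CHL and AT1G51110, 0.23 between CHL and AT5G19940 and -0.18 between the fibrillins. Over the 6 arrays of a group the values were 0.42 in WT and 0.38 in laf6 for CHL with AT1G51110, -0.29 and 0.38 for CHL with AT5G19940, and -0.23 and -0.12 for the fibrillins. These are descriptions over arrays whose independence is not given in the labels, and the correlations with CHL and AT5G19940 include values at the floor. Both laf6 arrays at 0 for CHL, replicates 2 and 3, were among the 4 at 0 for AT5G19940.

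The single-gene features most like CHL over the 12 arrays, by Pearson correlation of log2 values among 550 features with a signal on at least 9 arrays, were AT2G37880 (0.92), AT4G14380 (0.89) and AT3G52550 (0.88). AT2G37880 and AT3G52550 were at 0 on the same 2 laf6 arrays as CHL. With group means removed the closest were AT2G37880 (0.95), Cpn60beta4 (0.90), a subunit of the plastid chaperonin, and AT3G52550 (0.89). The log2 SD of CHL was 1.87 in laf6, with those 2 arrays at the floor, against 0.23 in WT. The correlations therefore rest largely on those 2 arrays and on where the floor was set.

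For AT1G51110 the closest were AT4G30740 (0.77), AT5G59400 (0.75) and AT4G20690 (0.74), and with group means removed AT4G18180 (0.81), AT4G30740 (0.75) and AT3G06870 (0.67). For AT5G19940, among 551 features, they were AT5G62840 (0.78), AT4G29890 (0.75) and AT1G73120 (0.73), and with group means removed AT3G15140 (0.76), PRA1.B6 (0.75) and AT5G62840 (0.73). No gene was among the closest to more than 1 member. These correlations are the highest picked from 550 or 551 features over 12 arrays and carry no test.

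Of 14 fibrillin family genes listed, 5 had a single-gene feature, and the 3 besides AT1G51110 and AT5G19940 did not pass limma's test (adjusted p over 3439 features, threshold 0.05, which 14.6% of single-gene features passed as lower and 10.3% as higher in laf6). AT5G09820, which in Arabidopsis binds a solanesyl diphosphate synthase of plastoquinone synthesis, gave normalized intensities of 0.0878 ± 0.0296 for WT and 0.0669 ± 0.0282 for laf6 (SD, n = 6), a log2 difference of -0.46 ± 0.34 (SE, limma adjusted p = 0.383). AT2G35490 stood at 0.126 ± 0.0344 and 0.180 ± 0.0936 (log2 difference 0.42 ± 0.30, limma adjusted p = 0.369; -0.04 with the values as deposited). AT2G46910 was listed at 0 on 3 arrays of each group and gave 0.02 ± 0.98 (limma adjusted p = 1), a difference that turned to -0.35 with median scaling. The median log2 difference over the 5 measured fibrillins was 0.02, which is the value of AT2G46910. AT1G51110 and AT5G19940 were chosen on this contrast, so that median is not set against the -0.03 of all single-gene features. Fibrillin differences were of both signs, from -1.35 for AT5G19940 to 0.78 for AT1G51110, both members. The 3 others ran from -0.46 to 0.42.

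A further 5 features were annotated with several genes, all of them fibrillins, and cannot be assigned to 1 gene. None passed the test, with log2 differences from -0.08 to 0.10 and limma adjusted p from 0.563 to 1. One of them had a signal on every array, 0.513 ± 0.112 in WT and 0.527 ± 0.169 in laf6 (SD, n = 6), a log2 difference of 0.01 ± 0.22 (SE). Another, also with a signal on every array, gave 0.10 ± 0.24. The other 3 were at 0 on 3 or more arrays of each group, which leaves little room to measure a difference.

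**Figure D3:**
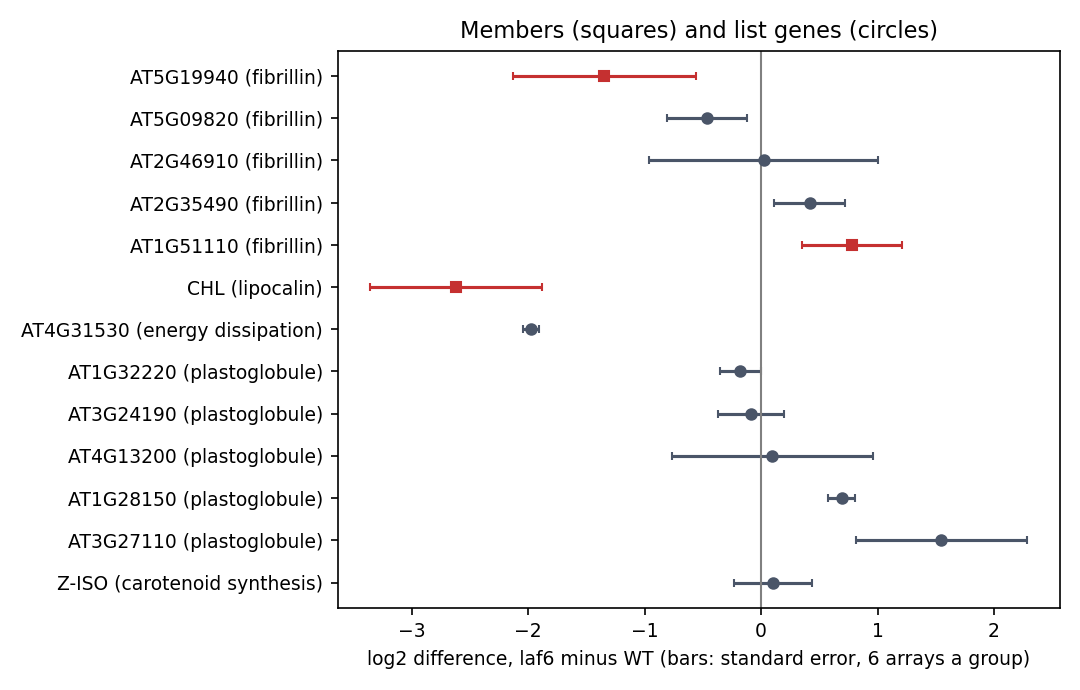
Log2 difference (laf6 minus WT) with its standard error over 6 arrays a group, for the 3 members (squares) and the 10 other list genes measured by a single-gene feature (circles), arranged by list. The fibrillins lie on both sides of 0, and CHL and AT4G31530 lie lowest.

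AT4G31530, the single gene measured of 3 listed for energy dissipation, fell in laf6. In Arabidopsis it encodes ROQH1, a plastid protein that relaxes the same qH dissipation for which CHL is required. Its deposited intensity was 41.7 to 52.4 over the WT arrays, with a median of 49.5, and 13.9 to 17.6 over the laf6 arrays, with a median of 17.1. All laf6 arrays lay well below all WT arrays, and no array was at the top of the scale.

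After quantile normalization AT4G31530 stood at 60.4 ± 2.16 in WT and 15.4 ± 1.11 in laf6 (SD, n = 6), a log2 difference of -1.98 ± 0.07 (SE, limma adjusted p = 5.78e-09). On 5 of the 6 WT arrays it held the same brightness rank and so received the same normalized value of 61.3, which narrows its WT spread and the SE. The ratio of group medians was 3.89 with quantile normalization, 3.54 with cyclic loess and 2.90 as deposited. It was 2.18 with median scaling and 2.17 with 75th percentile scaling. Relative to the median of all features, the log2 difference was -1.95 with quantile normalization and -1.11 as deposited. The call held under all 25 alternatives, with log2 differences from -2.02 to -1.14 and adjusted p up to 0.0034. AT4G31530 was thus lower on every laf6 array than on any WT array, as were 9.25% of the single-gene features. The same held for CHL. CHL was chosen on this contrast, and the list that holds AT4G31530 was chosen with earlier results of these data known. The p-value of AT4G31530 is thus no independent test, and nothing is read from the pair.

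Of 25 plastoglobule genes listed, 5 were measured, 1 rose, none fell and 4 did not pass. Over all single-gene features, 10.3% passed as higher and 14.6% as lower. AT1G28150, a gene of unknown function, rose from 0.208 ± 0.0204 to 0.338 ± 0.0507 (SD, n = 6), a log2 difference of 0.69 ± 0.11 (SE, limma adjusted p = 0.000767). The groups did not overlap after normalization (7.08% of single-gene features separated in this direction), but as deposited laf6 replicate 2 (0.216) lay below the WT arrays and the difference was 0.28 (limma adjusted p = 0.0881), or 0.74 relative to the median of all features. It was past the threshold under the other 24 alternatives. The plastoglobule list was also chosen with earlier results of these data known, so this p-value is no independent test.

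**Figure D4:**
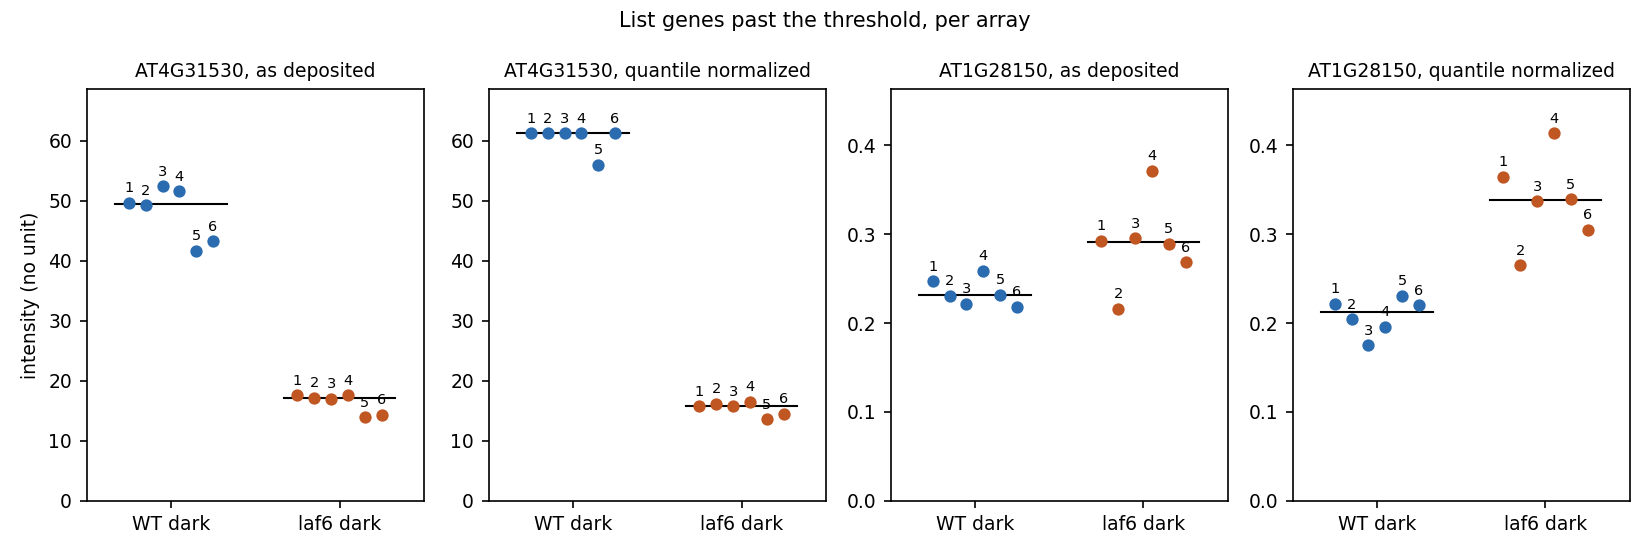
Intensity on each array of AT4G31530 and AT1G28150, as deposited and after quantile normalization, with replicates numbered and black bars at group medians (axes start at 0, no unit). AT4G31530 is lower on every laf6 array on both scales, and AT1G28150 separates the groups only after normalization.

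AT3G27110, which encodes the plastoglobule metallopeptidase PGM48, had a log2 difference of 1.55 ± 0.73 (SE, limma adjusted p = 0.158), with WT replicate 5 at the floor. Without that array the difference was 0.92. AT3G24190, an ABC1-like kinase gene, was -0.09 ± 0.28 (limma adjusted p = 0.872), and AT4G13200 was 0.10 ± 0.86 (limma adjusted p = 0.972). AT1G32220 was listed at 0 on 5 WT and 6 laf6 arrays and gives no measurement of a difference. Among 11 genes of carotenoid synthesis, the isomerase gene Z-ISO was the only one measured and did not pass (0.10 ± 0.33, limma adjusted p = 0.872). None of 8 tocopherol and plastoquinone genes or of 13 thylakoid lipid and membrane genes had a single-gene feature. Of the 10 list genes outside the members, 1 was therefore higher and 1 lower in laf6. These counts are near the shares over all single-gene features, 10.3% higher and 14.6% lower, and show nothing particular to the lists.

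**Figure D5:**
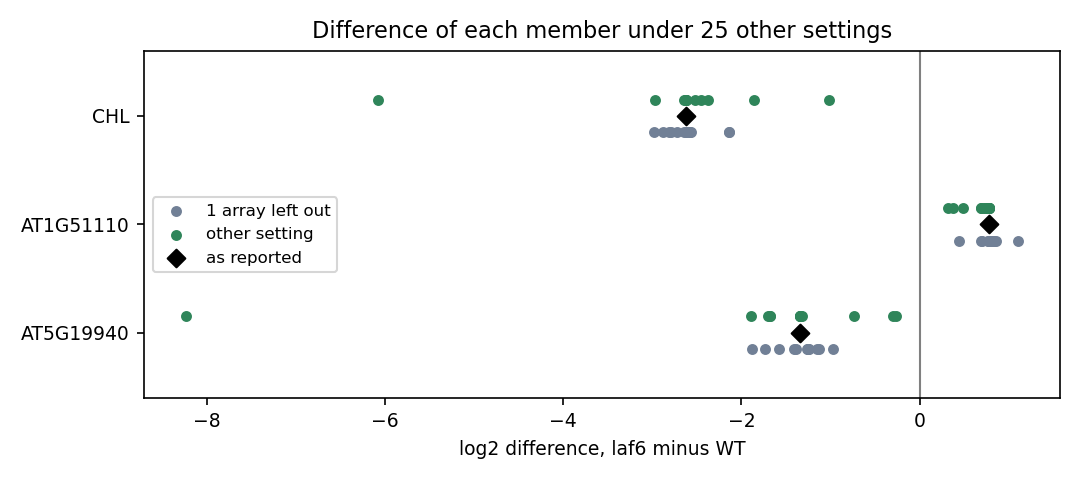
Log2 difference (laf6 minus WT) of CHL, AT1G51110 and AT5G19940 as reported (diamonds), with 1 array left out (grey) and under 13 other settings (green). Each gene kept its sign, and the far points at -6.08 and -8.23 come from the floor at the smallest positive value.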

How the data were processed

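The deposited table holds 1 intensity per feature and array, on a linear scale from 0 to about 100. How the authors scanned, background-corrected and scaled the arrays is not stated in the labels, and 15.7% of the intensities were 0. Array medians differed 1.62-fold. Arrays were quantile normalized, deposited zeros and values under the 1st percentile of positive values were set to it (0.00597, -7.39 on the log2 scale), and log2 values were fitted with limma 3.58.1 in R 4.3.3 (lmFit, eBayes, no covariates). P-values are two-sided, adjusted by Benjamini-Hochberg over 3439 features. The fit was tested on simulated data. Names are those of an old platform annotation, updated through Entrez identifiers with the RefSeq table of TAIR10.1 (690 of 692 single-gene features matched). The fit also held the 870 features that list several genes and the 1877 that list none. No array build is stated, so no coordinates are given.

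Members and the 7 gene lists (79 genes, 13 measured) were chosen with earlier results of these data known. Genes named are the members, every measured list gene where a list had at most 5, and the 3 features most like each member. The 5 features annotated with several fibrillins were added after their annotation was seen. Alternatives covered scaling, floor, a filter, array weights, a replicate block and arrays left out. No pair of arrays was identical. The number of arrays limits the precision.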

Additional observations from a re-analysis of the deposited data

Results flagged for a closer look

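Among 28 sets of 6 log2 values (14 genes, WT and laf6), 5 held an array set apart from the rest. The rule flags about 1 in 20 sets by chance, a rate that does not hold for values tied at the floor or at 1 rank, as in AT1G32220 and AT4G31530 below, where any departure is flagged. AT1G51110 was high on laf6 replicate 5 (-2.03, others -2.70 to -2.49), the array number that was also highest in WT. AT5G19940 was high on laf6 replicate 6 (-3.97, others -7.39 to -6.64), the others being at or near the floor. AT1G32220 had a signal on WT replicate 5 alone (-6.32, others at the floor of -7.39). AT4G13200 was at the floor on laf6 replicate 1 (-7.39, others -3.56 to -2.11). AT4G31530 was lowest on WT replicate 5 (5.81), where the other WT arrays shared the value 5.94 through the same brightness rank.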

How the results depend on the processing

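The sign of CHL, AT1G51110 and AT5G19940 was the same under all 25 alternatives. The size moved by more than the spread between arrays for CHL (-6.08 with the floor at the smallest positive value, -1.015 with the offset) and for AT5G19940 (-8.23 with that floor). Arrays at 0 take whatever floor is set. The offset of 0.1 also shrinks differences between arrays with a signal, as for AT1G51110 (0.37 against 0.78), which was at 0 on no array. With 1 array left out, CHL ran from -2.98 to -2.14, AT1G51110 from 0.44 to 1.11 and AT5G19940 from -1.88 to -0.97. With the values as deposited, 903 features were lower and 252 higher, against 473 and 428, and 191 single-gene features lower and 40 higher, against 101 and 71. With adjacent replicate numbers averaged, 256 features were lower and 289 higher, and 57 single-gene features were lower and 49 higher, from fewer samples. As deposited, limma called 0 list genes higher (1 at an unadjusted p under 0.05), AT1G28150 having 0.28.

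Differences that never passed turned sign for AT2G46910 (-0.55 as deposited, -0.35 with median and -0.35 with 75th percentile scaling, -0.39 with cyclic loess, -0.19 with array weights, -1.56 without replicates 1 and 2, and -0.62 to 0.44 with 1 array left out) and for AT4G13200 (-0.35 as deposited, -1.63 with the lowest floor, -0.20 to 0.88 with 1 array left out). They also turned for Z-ISO (-0.32 as deposited, -0.23 without replicates 1 and 2, -0.04 to 0.38 with 1 array left out), AT3G24190 (0.037 without replicates 1 and 2, -0.18 to 0.15 with 1 array left out) and AT2G35490 (-0.036 as deposited). Causes were not tested.

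Deviations of same-numbered WT and laf6 arrays correlated at 0.097 to 0.184, over 0.1 in 5 of 6 pairs, and all 12 arrays correlated best with their own number, a hint from the data and not from the design. With the replicate block, the differences were as reported (SE 0.73 for CHL, 0.34 for AT1G51110 and 0.61 for AT5G19940), 458 features were lower and 414 higher, and the same list genes passed, AT4G31530 and AT1G28150. Near the floor, where AT5G19940 lies, only large differences could be seen.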

Other observations

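The deposited intensities of AT4G31530, a bright feature, were close within arrays of adjacent number. In WT they were 49.7 and 49.3 on replicates 1 and 2, 52.4 and 51.6 on replicates 3 and 4, and 41.7 and 43.3 on replicates 5 and 6. In laf6 they were 17.6 and 17.1, 17.0 and 17.6, and 13.9 and 14.3 in the same order, with replicates 5 and 6 the lowest in both groups. The laf6 replicates 1 to 4 were no closer within these pairs than between them. Over all features, limma put the correlation within arrays of adjacent number at 0.19. Whether such arrays are repeats of 1 sample is not given in the labels, and it would leave 3 samples a group. The fibrillins gave a mixed picture in the deposited WT intensities. AT1G51110 read 0.152 and 0.0372 on replicates 1 and 2, 0.152 and 0.107 on replicates 3 and 4, and 0.296 and 0.108 on replicates 5 and 6. AT5G19940 read 0.0209 and 0.0969, then 0.00537 and 0.0245, and on replicates 5 and 6 the close pair of 0.0612 and 0.0632.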
